A study of Mus musculus and Homo sapiens with 34 samples.

Results

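The glycoproteins fibronectin (FN1), tenascin-C (TNC), periostin (POSTN), SPARC, thrombospondin-1 and -2 (THBS1, THBS2), osteopontin (SPP1), TGFBI and fibrillin-1 (FBN1) were followed through spheroids of 3 colorectal carcinoma cell lines grown with and without an added matrix. The 9 genes were matched by symbol, ignoring case, and all 9 were found among 55450 genes in mouse and among 58870 in human. They were chosen by their measured change between SIS ECM and cells alone in these libraries, so their values in that comparison are given as a description, without p-values, and the counts of members that passed the threshold there support nothing by themselves. CT26 and MC38 are mouse lines and HT29 is a human line, each labelled colorectal carcinoma. Each line was grown as spheroids of cells alone or as spheroids seeded with decellularised SIS ECM, in U-bottom plates in RPMI medium with fetal bovine serum, and RNA was taken at day 7. CT26 and HT29 have 6 libraries of each culture, and MC38 has 5 (numbers 1 to 5 for cells alone and 1, 3, 4, 5 and 6 for SIS ECM). Each library is polyA RNA from a tube that pooled 10 spheroids. The labels name no other cell type in the cultures, and each line is 1 cell line, so the libraries of a group do not sample different tumours.

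Fibronectin is secreted as a dimer and pulled into fibrils by integrins, and fibrillin forms the microfibrils that carry elastin and store latent TGF-beta. Tenascin-C, periostin, SPARC, osteopontin and the thrombospondins are matricellular proteins: they bind matrix and receptors and alter adhesion more than they build the scaffold. TGFBI and periostin share fasciclin domains, and in colorectal tumours most of these genes are known as products of activated stroma, with SPP1 also made by macrophages.

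Depth was 15826190 to 24196115 counts in the mouse libraries and 25515239 to 37001506 in the human libraries. Levels are CPM, counts relative to the library's TMM-scaled total, and they are compared between genes only per kilobase of exon. A change is a log2 fold change ± SE from edgeR's quasi-likelihood fit over all genes of the line, and a gene "passed" where its Benjamini-Hochberg adjusted p was below 0.05. The labels do not say that libraries came from separate cultures, so p-values measure the spread between libraries. The labelled cell type was visible in HT29, where 8 epithelial markers summed to 8454 to 10540 CPM and 8 fibroblast markers to at most 0.452 CPM. In both mouse lines the epithelial adhesion gene Epcam was at 0 in all 22 libraries. Cdh1 was at 0 in CT26, where Krt20 (46.3 CPM in cells alone) and Krt18 (7.26 CPM) were the detected keratins, and the epithelial markers of MC38 summed to 0.228 to 1.25 CPM. The fibroblast markers (a list that holds none of the 9 genes) summed to 468 to 816 CPM in CT26 and 2484 to 4345 CPM in MC38. Different genes carried these sums. In cells alone Col1a2 led in CT26 (576 ± 95.2 CPM) and was 0.154 ± 0.104 CPM in MC38, where Col3a1 (2284 ± 459) and Dcn (1073 ± 59) led. Thy1 was at 0 in all 22 libraries, and Lum had group means of at most 0.35 CPM. In bulk RNA fewer cells of a kind and less RNA per cell cannot be told apart. Within each mouse line, libraries numbered 1 to 3 also differed from those numbered 4 to 6 (compared at the end), so values are listed in the order of the library numbers.

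Without matrix, Spp1, Fn1 and Sparc were the most abundant members in both mouse lines, and the order of the rest differed. In CT26 cells alone the level per kilobase was highest for Spp1, at 1500 ± 196 CPM per kb (SD, n = 6), then Fn1 (132.5 ± 18.0), Sparc (68.5 ± 9.50), Thbs2 (6.23 ± 2.46), Thbs1 (1.89 ± 0.870), Tgfbi (0.297 ± 0.0761), Fbn1 (0.122 ± 0.0539) and Tnc (0.0529 ± 0.0237). Fbn1 and Tnc were the only neighbours in that order whose libraries overlapped. Postn had 0 counts in 6 of 6 libraries, a limit of 0.195 CPM in the shallowest of them from 3 counts, for counting error only. In MC38 cells alone the order was Spp1 (957 ± 78.9 CPM per kb, n = 5), Sparc (367 ± 34.3), Fn1 (153 ± 13.3), Tgfbi (90.7 ± 16.9), Fbn1 (49.6 ± 11.0), Thbs2 (43.2 ± 7.24), Postn (26.7 ± 3.16), Tnc (17.3 ± 1.72) and Thbs1 (4.06 ± 0.596). There only Fbn1 and Thbs2 overlapped as neighbours. Exon lengths are the union of annotated exons, not the lengths used in counting.

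The difference between the mouse lines in cells alone did not enter the choice of genes and was tested. The fibrillin gene Fbn1 (ENSMUSG00000027204.13, GRCm38 chromosome 2, 125300594 to 125507993, minus strand) was 1.48 ± 0.654 CPM in CT26 and 601 ± 133 in MC38, a log2 difference of 8.62 ± 0.24 (edgeR adjusted p = 2.9e-13). The tenascin gene Tnc (ENSMUSG00000028364.15, chromosome 4, 63959785 to 64047015, minus) was 0.411 ± 0.184 CPM in CT26, from 3 to 14 counts a library, and 135 ± 13.3 CPM in MC38. The fasciclin-domain gene Tgfbi (ENSMUSG00000035493.10, chromosome 13, 56609523 to 56639562, plus) was higher in MC38 by 8.22 ± 0.17 (adjusted p = 1.25e-14). Periostin (Postn, ENSMUSG00000027750.16, chromosome 3, 54361109 to 54391037, plus) stood at 232 ± 27.5 CPM in MC38, at least 1194-fold higher than the 3-count limit per library in CT26. Tnc and Postn passed the filter on low counts only through MC38, where they are high, so they had to differ and are given without p-values. Smaller differences were found for Thbs2 (2.78 ± 0.24, adjusted p = 7.44e-08), the collagen chaperone Sparc (2.41 ± 0.11, 3.56e-11) and Thbs1 (1.08 ± 0.26, 0.0014), and in each of these 7 genes all 5 MC38 libraries lay above all 6 CT26 libraries. Osteopontin went the other way: Spp1 (ENSMUSG00000029304.14, chromosome 5, 104435118 to 104441050, plus) was lower in MC38 by a log2 difference of -0.65 ± 0.10 (adjusted p = 2.41e-05), in 5 of 5 libraries. Fn1 (ENSMUSG00000026193.15, chromosome 1, 71585520 to 71653200, minus) was 1548 ± 209.9 CPM in CT26 and 1788 ± 156 in MC38 (0.20 ± 0.10, adjusted p = 0.0833). With libraries paired by number across the mouse lines, which leaves out CT26 library 6, the same gene gave 0.18 and passed (edgeR adjusted p = 0.0201). The labels do not pair libraries of different lines, and such pairing was not checked. Fn1 also passed on leaving out CT26 cells-alone library 3 (0.27) or MC38 cells-alone library 4 (0.25). Over all genes 80.2% passed in this comparison (42.3% higher and 37.9% lower in MC38), so the passes of single members, 6 of the 7 other than Tnc and Postn, are near that share.

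Promoter sequence is shown for Thbs2, Tnc and Postn, the members with the largest responses to the matrix in a mouse line, and for Spp1, the most abundant member per kilobase in both, so that their starts can be set side by side. The stretches are the 150 bases before the RefSeq start, 5′ to 3′, from RefSeq on GRCm38.p6, and capitals mark matches to the motifs named after them. RefSeq windows of 300 bases (250 before and 50 after a start) were matched for 7 of the 9 genes, all but Fn1 and Thbs1.
Postn, chr3:54360957-54361106, plus strand: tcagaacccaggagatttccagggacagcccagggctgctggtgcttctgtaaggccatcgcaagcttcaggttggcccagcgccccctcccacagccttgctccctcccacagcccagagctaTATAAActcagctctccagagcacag
Tnc, chr4:64047016-64047165, minus strand: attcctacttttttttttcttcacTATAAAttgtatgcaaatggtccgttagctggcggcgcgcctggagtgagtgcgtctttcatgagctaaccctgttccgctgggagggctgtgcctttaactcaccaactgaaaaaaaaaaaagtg
Thbs2, chr17:14694263-14694412, minus strand: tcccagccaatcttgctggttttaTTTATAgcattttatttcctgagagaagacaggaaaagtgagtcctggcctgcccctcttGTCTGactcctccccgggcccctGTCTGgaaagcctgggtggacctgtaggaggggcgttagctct
Spp1, chr5:104434961-104435110, plus strand: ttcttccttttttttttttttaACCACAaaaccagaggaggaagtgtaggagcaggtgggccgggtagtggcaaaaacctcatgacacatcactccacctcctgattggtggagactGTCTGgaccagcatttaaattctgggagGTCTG
The motifs searched, on both strands and without regard to overlap, were the TATA box (TATAAA), an AP-1 site (TGANTCA), a TEAD site (CATTCC), a STAT site (TTCNNNGAA), a RUNX site (TGTGGT), a SMAD box (CAGAC) and a GC box (GGGCGG). The TATA box was present in the windows of 4 of the 7 genes (Postn, Spp1, Thbs2 and Tnc) against 13.6% of all 32851 windows. Only in Postn did it begin 26 bases before the start, while in Tnc and Thbs2 it began 126 bases and in Spp1 211 bases before it. The SMAD box was present in 5 of 7 (49.6% of all windows), the GC box in 3 (35.7%) and the RUNX site in 2 (16.8%). The AP-1, TEAD and STAT letters were in none of the 7, against 7.81%, 14.7% and 8.3% of all windows, which says only that these letters are not in these windows.

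**Figure D1:**
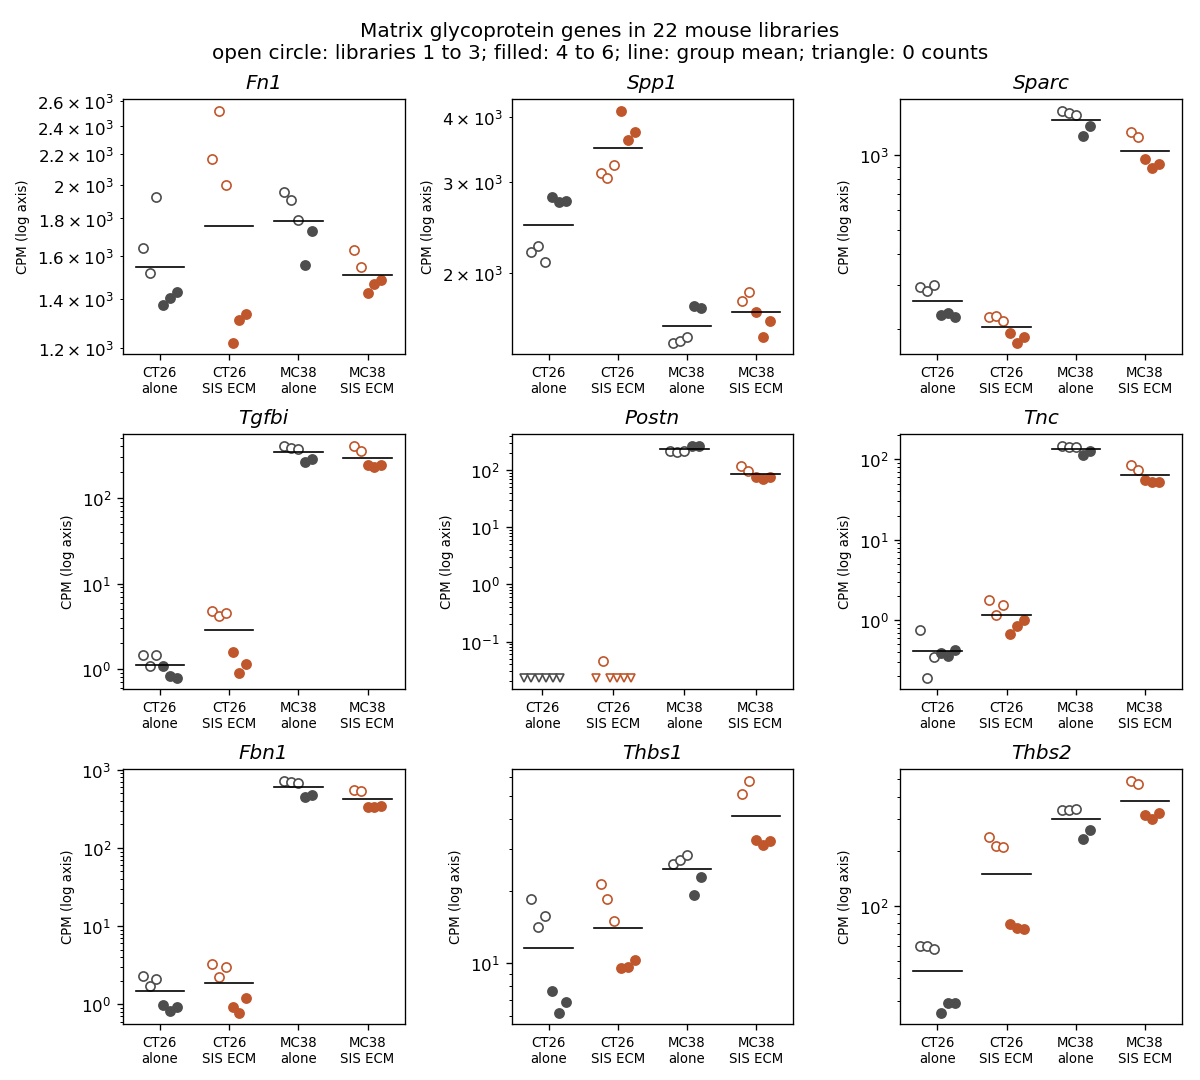
CPM (log axis) of the 9 genes in 22 mouse libraries by line and culture, with open circles for libraries 1 to 3, filled circles for 4 to 6, a line for the group mean and triangles for 0 counts. Postn has 1 count in the 12 CT26 libraries together, and in MC38 its 5 SIS ECM libraries (69.8 to 119 CPM) lie below its 5 cells-alone libraries (207 to 265 CPM).

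In CT26, culture with SIS ECM went with higher levels of thrombospondin-2, osteopontin, tenascin-C and TGFBI and a lower level of SPARC, while fibronectin did not pass. Of the 8 members tested 5 passed, 4 higher and 1 lower, where 9.25% of all genes passed, 6.15% as higher and 3.1% as lower. Together the 9 genes made up 0.407 ± 0.0124% of all counts in cells alone and 0.535 ± 0.0589% with SIS ECM (SD, n = 6 each). The median change of the 8 tested was 0.43, against 0.0082 over all genes tested. Over the same libraries the 8 epithelial markers summed to 44.8 to 60.6 CPM alone and 65.5 to 78.8 CPM with SIS ECM, with Krt18 higher (7.26 ± 1.34 to 15.6 ± 5.23 CPM, edgeR adjusted p = 0.00252) and Epcam and Cdh1 at 0. Of the 6 fibroblast markers tested, Dcn was higher (2.55 ± 0.359 to 3.99 ± 0.753 CPM) and Pdpn lower (31.8 ± 2.15 to 22.7 ± 0.759 CPM). Col1a2, which led this list, read 576 ± 95.2 and 468 ± 82.3 CPM and did not pass. Dcn did not pass in libraries 1 to 3 alone. Over the alternative fits 1 to 3 of these markers passed as higher and 1 to 2 as lower. The leukocyte markers summed to 1.31 to 3.16 CPM alone and 2.08 to 10.9 CPM with SIS ECM, most of it from the macrophage gene Cd68, at 2.03 ± 0.824 and 6.05 ± 4.65 CPM (1.58 ± 0.51, edgeR adjusted p = 0.0666). The rest of the list did not follow Cd68 to such levels. Means alone and with SIS ECM were 0.0890 and 0.0880 CPM for Ptprc and 0.183 and 0.156 CPM for Lyz2. Cd79a was at 0.0507 and 0.0987 CPM, and Cd3e was at 0 in both. Cd68, the 1 leukocyte marker tested, passed with DESeq2, with libraries paired by number, with a term for the number range, in libraries 1 to 3 and without SIS ECM library 4, 5 or 6. The part of these cell type markers in the changes of the members, Spp1 included, was not tested.

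Thbs2 (ENSMUSG00000023885.9, chromosome 17, 14665500 to 14694235, minus), a thrombospondin that limits matrix protease levels and vessel growth, moved most. It read 60.2, 60.1, 57.8, 25.7, 29.0 and 29.1 CPM in cells-alone libraries 1 to 6 and 239.9, 215, 212, 79.1, 75.2 and 74.7 CPM in SIS ECM libraries 1 to 6. All 6 SIS ECM libraries lay above all 6 without matrix, although both cultures were higher in libraries 1 to 3, and the log2 fold change was 1.78 ± 0.36. Its relative Thbs1 (ENSMUSG00000040152.8, chromosome 2, 118111876 to 118127133, plus), an activator of latent TGF-beta, read 11.5 ± 5.28 CPM alone and 14.0 ± 5.04 with SIS ECM. Its change of 0.29 ± 0.30 did not pass, but 0.33 ± 0.10 with libraries paired by number did.

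Spp1, the integrin and CD44 ligand osteopontin, read 2194, 2257, 2094, 2798, 2742 and 2750.1 CPM without matrix and 3124, 3052, 3229, 4114, 3619 and 3736 CPM with it. Every SIS ECM library was above every library of cells alone (log2 fold change 0.50 ± 0.11), and unlike Thbs2 both cultures were higher in libraries 4 to 6. Sparc (ENSMUSG00000018593.13, chromosome 11, 55394500 to 55423183, minus) was the gene that was lower, at 294, 283, 299, 228, 231 and 223 CPM alone and 223, 226, 216, 193, 176 and 186 with SIS ECM. The groups overlap: within each number range SIS ECM was lower, and 4 of the 6 SIS ECM libraries were below every library without matrix (-0.34 ± 0.10). That pass was lost without any 1 of cells-alone libraries 1, 2 or 3 or SIS ECM libraries 1, 4, 5 or 6 (-0.30 to -0.37), and without the filter on low counts (-0.37).

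The remaining genes that passed in CT26 are near the floor of detection there. Tnc read 0.749, 0.193, 0.352, 0.389, 0.356 and 0.427 CPM alone and 1.79, 1.16, 1.54, 0.669, 0.844 and 1.01 CPM with SIS ECM. This is 43 counts in all against 125, and Tnc entered the test only through its SIS ECM libraries. Of these, 5 of 6 lay above every library of cells alone (1.49 ± 0.32). Tgfbi read 1.44, 1.09, 1.46, 1.10, 0.831 and 0.792 CPM alone and 4.76, 4.17, 4.57, 1.58, 0.909 and 1.14 CPM with SIS ECM, so the groups separate in libraries 1 to 3 and overlap in libraries 4 to 6. Its change of 1.36 ± 0.40 no longer passed without any 1 of the 6 cells-alone libraries or of SIS ECM libraries 1, 2 or 3 (1.15 to 1.45), or with limma-voom (1.12). Fbn1, at 1.48 ± 0.654 and 1.89 ± 1.08 CPM, did not pass (0.36 ± 0.38), and Postn had 1 count in 1 of 6 SIS ECM libraries and was not tested.

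Fibronectin in CT26 behaved differently in the 2 number ranges. Fn1 read 1642, 1516 and 1928 CPM in cells-alone libraries 1 to 3 against 2167, 2519.8 and 1997 CPM with SIS ECM, every one of which was higher. In libraries 4 to 6 it read 1372, 1402 and 1429 CPM against 1220.5, 1311 and 1336 CPM, every one of which was lower. Over all libraries the change was 0.19 ± 0.18 and did not pass. Within ranges it was 0.39 ± 0.12 (libraries 1 to 3, passed) and -0.10 ± 0.05 (libraries 4 to 6, not passed). The change in libraries 4 to 6 minus that in 1 to 3 was -0.50 ± 0.13, which did not pass with edgeR and passed with DESeq2 (-0.49).

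In MC38 the response ran mostly downward. SIS ECM went with less periostin, tenascin-C and SPARC and with more thrombospondin-1. Of the 9 members 4 passed, 1 higher and 3 lower, where 9.17% of all genes passed, 3.82% as higher and 5.36% as lower, and the median change was -0.22 against 0.0062 over all genes. The 9 genes made up 0.685 ± 0.0574% of counts in cells alone and 0.590 ± 0.0587% with SIS ECM (n = 5 each). With libraries paired by number 6 members passed, with Thbs2 and Fbn1 added.

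Postn, a fasciclin-domain protein that promotes collagen assembly, read 219, 207, 212, 265 and 259 CPM in cells-alone libraries 1 to 5 and 119, 97.1, 74.4, 69.8 and 74.9 CPM in SIS ECM libraries 1, 3, 4, 5 and 6. The groups do not overlap, and the log2 fold change was -1.40 ± 0.14. Tnc, whose product binds fibronectin and weakens adhesion to it, read 147, 141, 143, 114 and 128 CPM alone and 85.8, 74.3, 55.9, 51.7 and 52.6 CPM with SIS ECM (-1.05 ± 0.13), again without overlap. Sparc read 1509.8, 1476, 1452, 1199 and 1316 CPM alone and 1244, 1181, 964, 891 and 922 CPM with SIS ECM. All but SIS ECM library 1 lay below every library of cells alone (-0.40 ± 0.10), and the pass was lost on leaving out cells-alone library 1, 2 or 3 or SIS ECM library 4, 5 or 6 (-0.36 to -0.39).

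Thbs1 went against this direction, from 26.0, 26.9, 28.3, 19.3 and 22.8 CPM to 50.9, 57.5, 32.5, 31.2 and 32.3 CPM. All 5 SIS ECM libraries were above all 5 without matrix (0.75 ± 0.17). Thbs2 read 336, 339, 341, 234 and 262 CPM alone and 489, 470.3, 316, 301 and 326 CPM with SIS ECM, higher within each number range but overlapping over both. Its change was 0.35 ± 0.15 and did not pass over all libraries, and 0.42 ± 0.07 with libraries paired by number, which did. Fbn1 read 719, 694, 679.9, 443 and 469 CPM alone and 557, 535, 332, 333 and 339.6 CPM with SIS ECM, lower within each range. Its change was -0.50 ± 0.18 (not passed) and -0.39 ± 0.07 with pairing (passed), and it also passed with DESeq2 (-0.50), with a term for the number range (-0.39), within each range (-0.36 in libraries 1 to 3 and -0.43 in libraries 4 to 6) and on leaving out library 4 of cells alone (-0.60) or library 1 of SIS ECM (-0.62). In MC38 libraries 1 to 3 hold 3 cells-alone and 2 SIS ECM libraries and libraries 4 to 6 hold 2 and 3, so a difference between the ranges enters these unpaired values.

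The 3 members left did not pass in MC38. Fn1 read 1953, 1906, 1790.3, 1558 and 1732 CPM alone and 1631, 1546, 1426, 1464 and 1484 CPM with SIS ECM, with 4 of 5 SIS ECM libraries below every library of cells alone (-0.22 ± 0.08). It passed with DESeq2 (-0.22), in libraries 1 to 3 (-0.25), without cells-alone library 4 (-0.27) and with a term for the number range (-0.20 ± 0.05), but not with libraries paired by number (-0.20 ± 0.08). Tgfbi was 342 ± 63.7 CPM alone and 294 ± 77.1 CPM with SIS ECM (-0.20 ± 0.16). Spp1 was 1577 ± 130.0 and 1680 ± 129 CPM (0.11 ± 0.08), higher with SIS ECM in libraries 1 to 3 (0.28 ± 0.05) and at -0.09 ± 0.07 in libraries 4 to 6. With the term for the number range 7 members passed in place of 4, and more genes passed over all as well, as given in the last section.

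HT29 cells expressed few of these genes, and 3 of the 5 that could be tested were higher with SIS ECM. FN1, TNC and TGFBI passed as higher and none as lower, where 13.5% of all genes passed, 7.75% as higher and 5.79% as lower. The median change was 0.47 against -0.0046 over all genes. FN1 (ENSG00000115414.19) read 2.17, 2.24, 2.66, 2.39, 1.98 and 2.26 CPM without matrix and 8.43, 8.20, 5.57, 5.15, 7.19 and 7.21 CPM with it. Every SIS ECM library was above every library of cells alone (log2 fold change 1.60 ± 0.12), on 434 counts against 1284 in all. TNC read 2.72, 2.87, 3.55, 2.94, 2.98 and 2.63 CPM alone and 6.09, 4.03, 4.77, 4.11, 3.83 and 5.21 CPM with SIS ECM (0.66 ± 0.12), and TGFBI 96.6, 103, 114, 107, 100.1 and 92.3 CPM alone and 166, 128, 129, 149, 134 and 142 CPM with SIS ECM (0.47 ± 0.06). In both genes the groups do not overlap. The size of each change was similar in libraries 1 to 3 and 4 to 6 (1.65 ± 0.18 and 1.55 ± 0.16 for FN1, 0.71 ± 0.18 and 0.61 ± 0.15 for TNC, 0.43 ± 0.10 and 0.50 ± 0.07 for TGFBI).

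THBS1 was at 32.4 ± 2.47 CPM alone and 35.1 ± 3.77 with SIS ECM (0.12 ± 0.07) and FBN1 at 0.666 ± 0.185 and 0.540 ± 0.0633 CPM (-0.29 ± 0.20), and neither passed. The other 4 were too low to test. POSTN had 11 counts in the 6 libraries of cells alone and 20 in the 6 with SIS ECM, of which 11 were in SIS ECM library 6. SPARC had 6 and 5 counts, SPP1 3 and 2, and THBS2 0 and 1. A count of 3 corresponds to 0.0823 to 0.114 CPM in these libraries, so changes below that level were not detectable at this depth. The 9 genes together made up 0.0140 ± 0.000723% of counts in cells alone and 0.0190 ± 0.00102% with SIS ECM. The fibroblast markers stayed at or below 0.452 CPM in sum in all 12 libraries. Of 8 epithelial markers 2 fell, beside 5.79% of all genes, KRT20 (-0.28 ± 0.05, edgeR adjusted p = 0.00124) and VIL1 (-0.23 ± 0.05, 0.00289). KRT20 did not pass in libraries 1 to 3 alone nor VIL1 in libraries 4 to 6 alone, fits with fewer samples. The smooth muscle marker ACTA2, the 1 of 4 that could be tested, rose from 1.27 ± 0.301 to 1.79 ± 0.0776 CPM (0.49 ± 0.15, edgeR adjusted p = 0.0324). That call was lost in 7 of 12 omissions of 1 library (cells-alone 1, 3, 5 and 6 and SIS ECM 3, 5 and 6, at 0.42 to 0.50). DES was lower with SIS ECM (0.299 ± 0.103 and 0.200 ± 0.101 CPM). MYH11 read 0.0352 and 0.0407 CPM and CNN1 0.00558 and 0.00633 CPM. The leukocyte markers summed to 1869 to 2035 CPM alone and 1715 to 2084 CPM with SIS ECM, most of it from LYZ. LYZ read 1934 ± 63.5 CPM alone and 1838 ± 130 CPM with SIS ECM and did not pass. In the same list PTPRC read 0.0164 CPM alone and 0.0109 with SIS ECM, CD3E 0 and 0.00483, and CD79A 0.113 and 0.0652. The leukocyte marker CD68 fell from 22.5 ± 1.65 to 19.95 ± 1.14 CPM (-0.18 ± 0.06, 0.045), a call lost in 9 of 12 (all but cells-alone 5 and 6 and SIS ECM 1; -0.15 to -0.19). The calls for ACTA2 and CD68 were also lost without the filter on low counts (0.49 and -0.18). The part of these markers in the changes of the members was not tested.

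**Figure D2:**
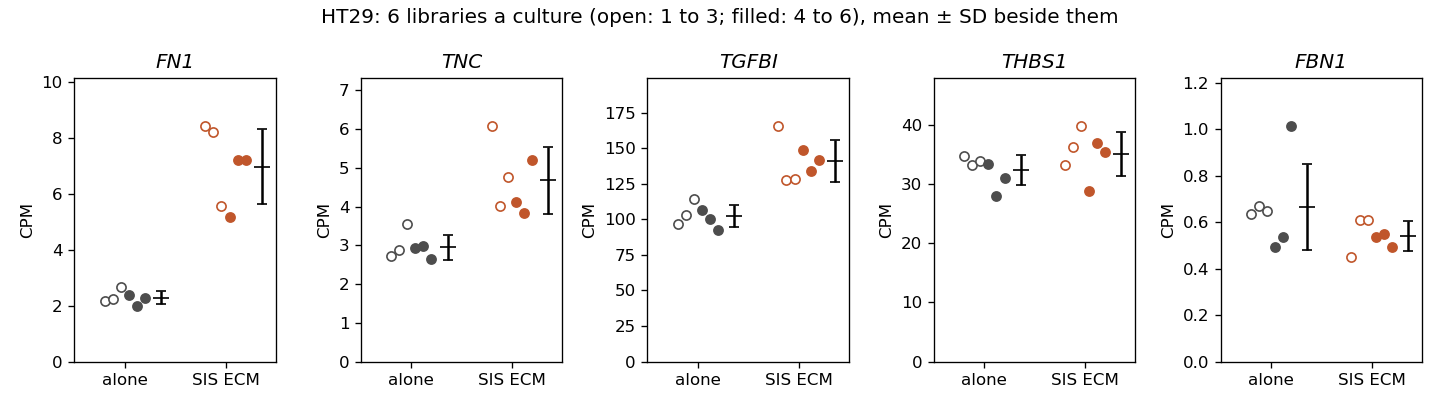
CPM of the 5 members tested in HT29, with 6 libraries per culture (open circles for numbers 1 to 3, filled for 4 to 6) and the mean ± SD beside them. FN1, TNC and TGFBI separate completely, with FN1 at 1.98 to 2.66 CPM alone and 5.15 to 8.43 CPM with SIS ECM.

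Set side by side, no member passed in the same direction in all 3 lines. Tenascin-C was higher in CT26 (1.49 ± 0.32) and HT29 (0.66 ± 0.12) and lower in MC38 (-1.05 ± 0.13), with the CT26 value resting on a level of 0.411 ± 0.184 CPM in cells alone against 135 ± 13.3 CPM in MC38. SPARC was lower in both mouse lines (-0.34 ± 0.10 and -0.40 ± 0.10) and was not testable in HT29. TGFBI passed in CT26 and HT29, and fibronectin passed in HT29. The response of MC38 minus that of CT26 is built from the responses by which the genes were chosen, so it too is a description and supports nothing. Fitted over all mouse libraries, it was -2.56 ± 0.34 for Tnc, which entered the CT26 test only through its SIS ECM libraries, -1.44 ± 0.43 for Thbs2 and -1.59 ± 0.44 for Tgfbi. These 3 of 9 were past the threshold, beside 8.27% of all genes (5.4% lower and 2.87% higher in MC38), and nothing is read from that count. With libraries paired by number 5 members were past it, with Spp1 (-0.44 ± 0.11) and Fbn1 (-0.78 ± 0.13) added. With limma-voom 1 did, Tnc. Leaving out 1 library ended the pass of Thbs2 for 12 of the 22 libraries (CT26 cells-alone 4, 5 and 6, CT26 SIS ECM 1, 2 and 3, MC38 cells-alone 1, 2 and 3 and MC38 SIS ECM 4, 5 and 6, at -1.26 to -1.40), and that of Tgfbi for CT26 SIS ECM libraries 1 (-1.38) and 2 (-1.44). Sparc differed by -0.06 ± 0.15 between the responses and Fn1 by -0.43 ± 0.21, neither of which was past the threshold.

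**Figure D3:**
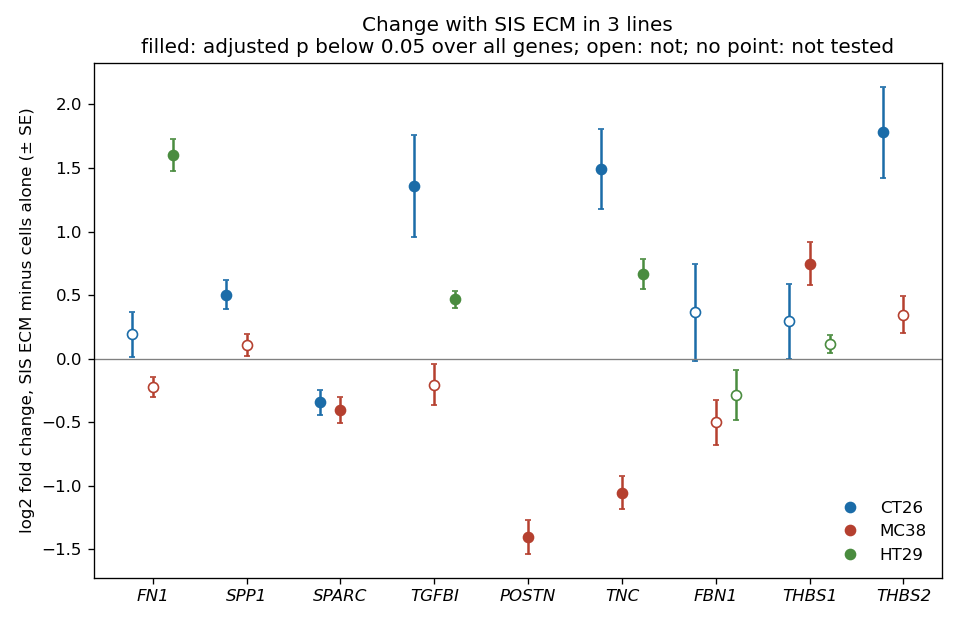
Log2 fold change ± SE of SIS ECM against cells alone for the 9 genes in CT26, MC38 and HT29, filled where the adjusted p over all genes was below 0.05 and open where it was not. TNC lies at 1.49 in CT26, 0.66 in HT29 and -1.05 in MC38, and genes without a point were too low to test in that line.

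The number ranges were compared as a measure the choice of genes did not use. In CT26, 7 of 8 tested members differed between libraries 4 to 6 and 1 to 3 over both cultures, 6 lower and 1 higher, against 51.5% of all genes (25.7% lower and 25.8% higher). In MC38 6 of 9 were lower in libraries 4 to 6, against 39.1% of all genes (19.6% lower and 19.5% higher). The fibrillin gene fell furthest of the tested members in both lines, with Fbn1 at -1.37 ± 0.17 in CT26 (edgeR adjusted p = 1e-05) and -0.63 ± 0.04 in MC38 (1.02e-07). Tgfbi fell by 1.35 on the log2 scale in CT26 (adjusted p = 0.000137) and by 0.55 in MC38 (1.76e-06). In CT26 cells alone its difference of -0.58 did not pass. Thbs2 fell by 1.33 and 0.50 (8.84e-09 and 1.69e-06) and Thbs1 by 1.06 and 0.55 (1.01e-06 and 5.98e-05). Sparc fell by 0.31 in CT26 (1.33e-05) and by 0.28 in MC38 (0.000415).

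Fn1 fell in CT26 (-0.53 ± 0.09, edgeR adjusted p = 0.000178), lower in 6 of 6 libraries, and gave -0.13 ± 0.05 in MC38 (adjusted p = 0.0522), where 0.05 was crossed with DESeq2, limma-voom and no filter, in cells alone (-0.17) and on omission of library 5 of cells alone or 3 or 6 of SIS ECM (-0.15 to -0.16). Tnc fell in MC38 (-0.38 ± 0.06, adjusted p = 0.000307) and did not pass in CT26 (-0.60 ± 0.28, 0.0827), where it passed in SIS ECM libraries (-0.83) and without cells-alone library 2 (-0.71). Spp1 rose in CT26 (0.31 ± 0.05, 5.28e-05) and did not pass over both cultures of MC38 (0.05 ± 0.07, adjusted p = 0.588): it was 0.24 higher in libraries 4 to 6 of cells alone, which passed, and -0.14 with SIS ECM. Postn did likewise in MC38, at 0.33 in cells alone and -0.53 with SIS ECM, of which the second passed. Both cultures are present in both ranges, and the labels do not say what the numbers stand for.

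The size of the matrix response within each range comes from the comparison by which the genes were chosen and is given as a description. In MC38 the response in libraries 4 to 6 minus that in 1 to 3 was -0.85 ± 0.09 for Postn, which was at -0.98 ± 0.06 in libraries 1 to 3 and -1.83 ± 0.05 in libraries 4 to 6. It was -0.33 ± 0.09 for Tnc, -0.39 ± 0.11 for Thbs1 and -0.37 ± 0.08 for Spp1. These 4 of 9 were past the threshold, beside 20.4% of all genes (11.1% lower and 9.38% higher). The pass of Thbs1 was lost if library 1 (-0.34) or 5 (-0.27) of cells alone or library 3 of SIS ECM (-0.30) was left out, and that of Tnc if library 5 of cells alone (-0.25) or library 1 of SIS ECM (-0.22) was left out. In CT26 0 of 8 tested members passed with edgeR, 2 with DESeq2 and 3 without the filter, where 0.244% of all genes passed with edgeR (0.149% lower and 0.0943% higher) and 2267 genes had an unadjusted p below 0.05. Without SIS ECM library 3 of CT26, 3 members passed: Fn1 (-0.56), Thbs2 (-0.46) and Tgfbi (-1.28).

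**Figure D4:**
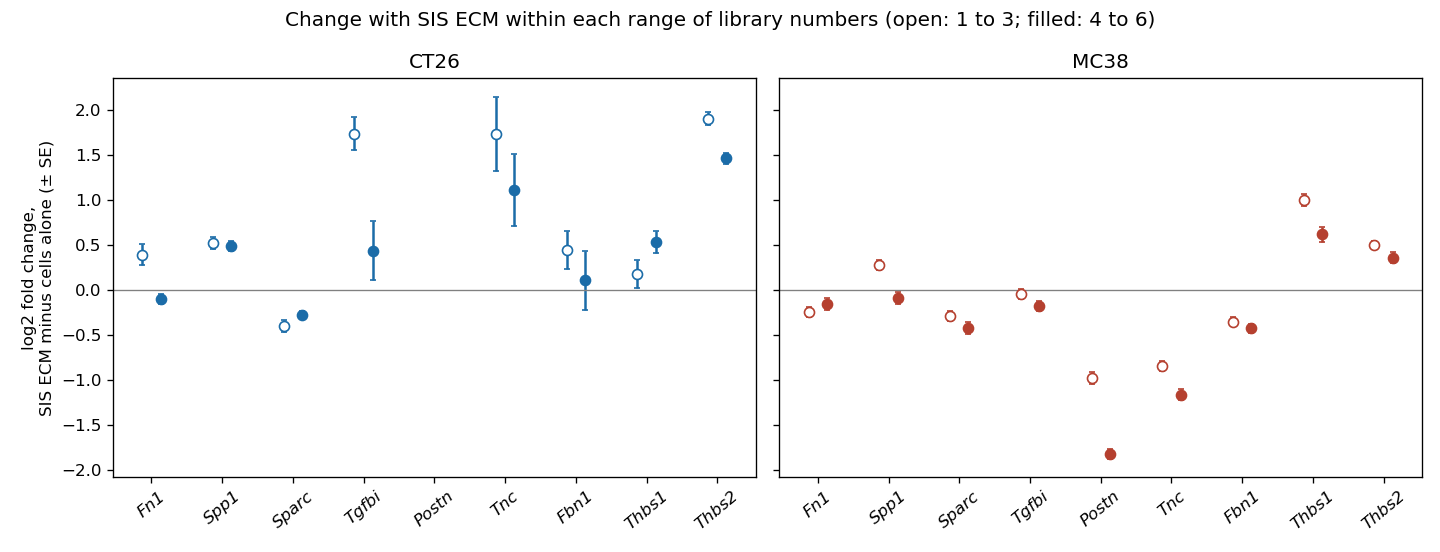
Log2 fold change ± SE of SIS ECM against cells alone within libraries 1 to 3 (open) and 4 to 6 (filled) of CT26 and MC38. Fn1 in CT26 lies on either side of 0 (0.39 and -0.10), and Postn in MC38 is at -0.98 and -1.83.

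Genes that act with these glycoproteins were taken from 5 lists, and their counts are descriptions beside the median of all genes given above for each line. In MC38 the genes of the fibrillin microfibril moved down as a count: of 12 tested, 8 were lower and 1 was higher, with a median of -0.36, where 5.36% of all genes were lower and 3.82% were higher. On leaving out cells-alone library 1 or 2 or SIS ECM library 4 or 6, 5 were lower. The microfibril gene Fbn2 fell from 12.8 ± 1.61 to 8.30 ± 0.434 CPM (-0.60 ± 0.10, edgeR adjusted p = 0.0027) and the latent TGF-beta binding protein gene Ltbp4 from 60.5 ± 9.39 to 40.4 ± 1.67 CPM (-0.56 ± 0.09, 0.00327), while Ltbp1, of the same family, rose from 62.1 ± 6.83 to 86.0 ± 10.4 CPM (0.49 ± 0.09, 0.00582). In CT26 1 of 11 rose, beside 6.15% of all genes, Ltbp2 (0.81 ± 0.12, 0.000833). In HT29 2 of 10 rose, beside 7.75% of all genes, LTBP2 (0.89 ± 0.14, 0.000463) and LTBP3 (0.24 ± 0.06, 0.00986). The fibroblast marker sum in MC38 was 3382 to 4345 CPM alone and 2484 to 4040 CPM with SIS ECM, and none of its 5 tested genes passed, with Col3a1 at 2284 ± 459 and 1464 ± 492 CPM. With libraries paired by number 1 of these markers passed as lower, with a term for the number range 2, in libraries 1 to 3 2, in libraries 4 to 6 3, and 1 each without the filter, without cells-alone library 4 and without SIS ECM library 1. In libraries 1 to 3 1 also passed as higher. Over all genes more passed in libraries 1 to 3 as well (5287 in place of 1206), and also with the range term and in libraries 4 to 6, as given in the last section. The part of these markers in the changes of MC38, those of the members included, was not tested.

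Of the receptors of the glycoproteins, 5 of 11 tested rose in HT29 and 0 fell (median 0.14), beside 7.75% of all genes as higher, among them the integrin beta chains that bind fibronectin and latent TGF-beta, ITGB6 (66.2 ± 4.93 to 84.2 ± 3.44 CPM, 0.35 ± 0.05, edgeR adjusted p = 0.000117) and ITGB8 (0.47 ± 0.08, 0.000683). In MC38 3 of 12 fell, beside 5.36% of all genes, and 0 rose (median -0.10), with Itgb5 at -0.56 ± 0.08 (0.00214) and the endocytic receptor Lrp1, which takes up thrombospondins, at -0.51 ± 0.08 (0.0027). In CT26 1 of 11 rose (median 0.0051), Itgb8 (1.05 ± 0.25, 0.0186), close to the 9.25% of all genes that passed. The mouse counts moved with the handling of the library numbers, as did the numbers over all genes given in the last section. In CT26 4 rose and 3 fell with a term for the number range, 3 rose in libraries 1 to 3, 2 rose and 3 fell in libraries 4 to 6, and 1 fell with DESeq2 or without SIS ECM library 2. In MC38 1 rose with libraries paired by number, 2 rose and 5 fell with the range term, 2 rose in libraries 1 to 3 and 6 fell in libraries 4 to 6. In HT29 2 rose in either range alone, fits with fewer samples, and 1 fell without the filter or without cells-alone library 5.

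Of the genes for assembly and processing, 4 of 8 rose in HT29, 3 of 8 rose in CT26, and in MC38 2 of 10 rose and 2 fell. Over all genes 7.75% rose in HT29, 6.15% rose in CT26, and in MC38 3.82% rose and 5.36% fell. Medians of the list were 0.21 in HT29, 0.13 in CT26 and -0.21 in MC38. None of the list fell in HT29 or CT26, while in CT26 1 fell with libraries paired by number, with a term for the number range and in either range alone. In MC38 1 fell in place of 2 with libraries paired by number or without cells-alone library 2, and 5 in libraries 1 to 3. The range term and single ranges passed more of all genes too in both mouse lines, as given in the last section. Without SIS ECM library 2, 3 or 5, 2 rose in HT29, and on leaving out cells-alone library 4 or 5 or SIS ECM library 1 or 2, 1 rose in CT26. In MC38 the count that rose was 0 without cells-alone library 3 or 5. TGM2, a transglutaminase that crosslinks fibronectin, rose in HT29 from 203 ± 18.9 to 346 ± 28.0 CPM (0.77 ± 0.07, edgeR adjusted p = 7.11e-07) and the lysyl oxidase-like gene LOXL1 rose by 0.72 ± 0.06 (8.06e-07). In CT26 Tgm2 rose from 4.98 ± 1.82 to 10.7 ± 4.34 CPM (1.12 ± 0.28, 0.0245), a call lost on leaving out cells-alone library 4, 5 or 6 or SIS ECM library 1 or 2 (0.96 to 1.04). The membrane protease gene Mmp14 rose in CT26 (0.48 ± 0.10, 0.00623) and MC38 (0.39 ± 0.10, 0.0232; lost without cells-alone library 3 or 5, at 0.41 and 0.36). In MC38 the perlecan gene Hspg2 fell from 232 ± 29.2 to 157 ± 10.9 CPM (-0.54 ± 0.08, 0.00257). Adamts5 also fell there (-0.36 ± 0.08, 0.0179), but not with libraries paired by number (-0.29, adjusted p = 0.0852) nor without cells-alone library 2 (-0.32). The call for Adamts4 in MC38 (0.34 ± 0.09, 0.0435) was lost without any 1 library except SIS ECM library 6 (0.29 to 0.38).

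Among related matricellular genes, Tnr, a tenascin of nervous tissue, rose in CT26 from 0.354 ± 0.314 to 2.92 ± 1.49 CPM (2.97 ± 0.50). Tnr passed the filter on low counts only through its SIS ECM libraries, where it is high, so it had to differ and is given without a p-value. The SPARC-family gene Fstl1 fell from 31.9 ± 3.49 to 19.9 ± 1.43 CPM (-0.67 ± 0.08, edgeR adjusted p = 0.000158). In all, 2 of 7 tested rose, Tnr included, and 1 fell in CT26, beside 6.15% and 3.1% of all genes. The other riser was Dmp1 (0.95 ± 0.28, edgeR adjusted p = 0.0496), a call lost without any 1 of 9 of the 12 libraries (all but cells-alone 2 and SIS ECM 4 and 6; 0.81 to 1.01). In MC38 3 of 12 fell, beside 5.36% of all genes, with Dmp1 at -1.74 ± 0.28 (edgeR adjusted p = 0.00327) and the vitronectin gene Vtn at -1.76 ± 0.37. Vtn read 1.02 ± 0.247 CPM alone and 0.2925 ± 0.207 CPM with SIS ECM. It passed the filter only through its cells-alone libraries, so it had to differ and is given without a p-value. Dmp1 and Vtn both had group means of at most 2.51 CPM. In HT29 1 of 6 fell, beside 5.79% of all genes, the connective tissue growth factor gene CCN2 (-0.58 ± 0.13, edgeR adjusted p = 0.00698). Medians were -0.10, -0.18 and 0.08.

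Genes of TGF-beta, SRF and YAP input, which are known to drive several of the 9, had falls in the mouse lines and rises in HT29: 4 of 18 fell in CT26 (median -0.05), 3 of 19 in MC38 (-0.08) and 5 of 17 rose in HT29 (0.17), with 0 in the other direction. Over all genes 3.1% fell in CT26, 5.36% fell in MC38 and 7.75% rose in HT29. In CT26 2 rose with libraries paired by number, with a term for the number range or in libraries 1 to 3, and 1 in libraries 4 to 6. In MC38 3 rose and 5 fell with the range term, and 4 rose and 7 fell in libraries 1 to 3. These mouse settings passed more of all genes too, with numbers given in the last section. In HT29 8 rose with DESeq2, 2 in libraries 1 to 3 and 1 in libraries 4 to 6, and the count was 9 and 8 without SIS ECM library 1 or 4, and 3 without SIS ECM library 2, 3 or 5. The YAP target gene Ankrd1 fell in CT26 from 72.4 ± 4.84 to 41.9 ± 7.19 CPM (-0.78 ± 0.10, edgeR adjusted p = 0.000231), the TGF-beta inhibitor gene Smad7 fell in MC38 (-0.36 ± 0.07, 0.0113), and YAP1 rose in HT29 (0.27 ± 0.05, 0.00127).

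The genes whose log2 CPM tracked a leading member most closely were named for 1 member per line. Across the 12 CT26 libraries Thbs2 was followed by Tnfrsf9 (Pearson's r = 0.994), Txnip (0.991) and Gnpda1 (0.99) among 9248 genes whose log2 CPM averaged 2 or more. Across the 10 MC38 libraries Postn was followed by Pla2g7 (0.976), Adgrg1 (0.976) and the small proteoglycan gene Bgn (0.96) among 9856 genes, and across the 12 HT29 libraries FN1 by GALNT10 (0.981), APOBEC3C (0.981) and the receptor kinase gene AXL (0.974) among 10964. The libraries share the contrast of cultures and, in the mouse lines, the number ranges, so these values describe a shared pattern and are not a test.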

How the data were processed

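RNA from 34 tubes of spheroids (22 mouse, 12 human) was sequenced. The values are expected counts per gene that the authors deposited in 1 table per species. The tools named per the submitters' processing notes are cutadapt 1.18, STAR 2.7.0f and RSEM 1.3.1, the library kit was stranded per the labels' protocols, and whether counting used strand is not stated in the notes or the labels. The members, gene lists and tests were chosen with earlier results of these data known.

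Expected counts were rounded to whole numbers. Each line was fitted on its own libraries in edgeR 4.0.16 (R 4.3.3) with TMM factors, filterByExpr at a minimum count of 10, the quasi-likelihood test and Benjamini-Hochberg adjustment over all genes tested, with a threshold of 0.05. The fits were checked on simulated counts. The SE is the absolute log2 fold change divided by the square root of the F statistic, and a floor is 3 counts in a library, for counting error only. Members are all named. From each other list at most 2 genes per line and direction with the lowest adjusted p among those past the threshold are named. Likeness, for the member with the largest change per line, named the 3 closest genes among those whose log2 CPM (prior count 2) averaged 2 or more, leaving out predicted and clone-named genes. Alternatives were DESeq2 1.42.0, limma-voom (limma 3.58.1), no filter, leaving out each library, single number ranges, a number range term and a replicate block. The replicate block kept only library numbers found in both groups compared, so every paired MC38 response is without cells-alone library 2 and SIS ECM library 6. The tests of the difference of the response between number ranges were chosen after seeing the data. One gene of the lists that this rule would name is not reported here, and it stays in the counts and medians of its list. A further 34 columns of per-sample values were not used.

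Same-numbered libraries deviated together in CT26 (r = 0.222 to 0.484 over 6 pairs) and MC38 (0.188 to 0.321 over 4 pairs), so their numbers were taken as pairing. This comes from the data, not from the labels, and 2 of the 6 CT26 pairs and 1 of the 4 MC38 pairs correlated best with their own number, so what single numbers share and what the number ranges share cannot be told apart here. No 2 of the 80 library pairs compared within groups held identical values, and all differed by more than sampling noise (chi-square per degree of freedom of 1.89 to 137).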

Additional observations from a re-analysis of the deposited data

Results flagged for a closer look

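Among groups of 5 or 6 libraries, 4 of 52 held a library far from the others, where chance gives about 1 in 20. Of these, 3 rest on very few counts: Postn in CT26 SIS ECM library 2 (0.0464 CPM, 1 count), THBS2 in HT29 SIS ECM library 1 (0.032 CPM, 1 count) and POSTN in HT29 SIS ECM library 6 (0.361 CPM, 11 counts). The other was FBN1 in HT29 cells-alone library 6 at 1.02 CPM.

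The response of MC38 minus that of CT26 (log2) was -2.56 for Tnc, -1.44 for Thbs2 and -1.59 for Tgfbi. The members were chosen by these responses, and Tnc entered the CT26 test only through its SIS ECM libraries, so their values are descriptions. Among the listed partners the response differed for Dmp1 (-2.69), Itgb5 (-0.98), Ltbp2 (-1.58), Tgm2 (-1.46), Adamts5 (-3.4) and the fibroblast marker Dcn (-0.74). In MC38 itself Adamts5 changed by -0.36, and its level and change in CT26 are not given here. Of its list 8 genes were tested in CT26 and 10 in the joint fit, so a gene scarce in CT26 can enter through MC38. In cells alone Dcn was at 2.55 CPM in CT26 and 1073 CPM in MC38.

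Within MC38 the response in libraries 4 to 6 minus that in 1 to 3 was -0.33 for Tnc, -0.85 for Postn, -0.39 for Thbs1 and -0.37 for Spp1, also as a description.

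Between species the difference was not tested. Every SIS ECM library was above every cells-alone library for TNC in HT29 and below in MC38, where the log2 fold change was -1.05.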

How the results depend on the processing

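Within each mouse line the numbers of genes past the threshold moved with the handling of the library numbers. In CT26 1135 genes passed, against 2281 with the replicate block (libraries paired by number), 3545 with a number range term, 2484 in libraries 1 to 3 and 2333 in libraries 4 to 6. In MC38 1206 passed, against 3246 with the number range term, 5287 in libraries 1 to 3 and 2318 in libraries 4 to 6, and the members that passed numbered 7, 8 and 7 in place of 4. In HT29 2058 genes passed, against 719 in libraries 1 to 3 and 417 in libraries 4 to 6, fits with fewer samples. The HT29 numbers did not pair the libraries (r = -0.0956 to 0.0646 over 6 pairs, 1 of which correlated best with its own number), and the replicate block left 3 members past the threshold there. For the response of MC38 minus that of CT26, 3 members passed, against 1 with limma-voom, 5 with the replicate block and 7 with the number range term, under which 3740 genes passed in place of 1165. For the difference of the response between number ranges in CT26, 31 genes and 0 members passed, against 344 and 2 with DESeq2, 696 and 3 without the filter, and 19 genes with limma-voom. The cause of these moves was not tested.

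Directions that turned were Fn1 in CT26 (-0.10 in libraries 4 to 6) and Spp1 in MC38 (-0.087 in libraries 4 to 6), and, for libraries 4 to 6 against 1 to 3 in MC38, Postn in cells alone (0.33) and Spp1 with SIS ECM (-0.14). On leaving out 1 library the same Postn value ran from -0.18 to 0.059, above 0 only without SIS ECM library 1.

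Leaving out 1 library at a time gave 792 to 1364 genes and 3 to 4 members in CT26 (3 without cells-alone library 1, 2 or 3 or SIS ECM library 1). MC38 gave 626 to 1948 genes and 3 to 6 members, with 648, 626, 663 and 1948 genes without cells-alone library 1, 2, 3 or 4 and 724 and 742 without SIS ECM library 4 or 6. HT29 gave 1445 to 2464 genes and 3 members each time. The difference between the lines' responses gave 813 to 1727 genes and 1 to 3 members (1 without CT26 SIS ECM library 1 or 2). Between number ranges the response gave 0 to 3101 genes and 0 to 3 members in CT26, the highest without SIS ECM library 3, and 0 to 19 genes without any other library except cells-alone library 3. In MC38 it gave 1453 to 3056 genes and 2 to 5 members, with 1868 genes without cells-alone library 1, 1453 without SIS ECM library 3 and 2 members without cells-alone library 5. Members with a few counts per library could not be tested at this depth.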
